A study of Mus musculus with 8 samples.

Results

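The genes described here are 40 mouse genes of the G2 phase and mitosis, a list of cyclins, mitotic kinases, kinesins, kinetochore proteins and proteins of the spindle, of cytokinesis and of chromosome structure. They were chosen by function, though with earlier results of these data known. Each gene was read by 1 probe set, the one with the highest mean over the 8 arrays, and 39 of the 40 had such a probe set among the 18193 genes named in the data. All 39 were among the 13647 genes tested, which left out genes of low mean signal. Ccnb1, which encodes cyclin B1, is not analysed here.

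The arrays measured RNA of mouse fibroblasts isolated from E14.5 embryos (strain label C57BL6/J), either wild type for Hif-p4h-1 or lacking it, each in normoxia and in hypoxia. Hif-p4h-1 is the product of Egln2, a prolyl hydroxylase that marks the alpha subunits of hypoxia-inducible factor for degradation when oxygen is present. Each of the 4 combinations of genotype and oxygen had 2 arrays, 1 in a first set and 1 in a set that the titles call second. The sources used here give neither the oxygen level, the length of the exposure, the passage of the cells nor the number of embryos. Since the labels do not say whether both arrays of a group had separate cultures, the p-values cover only the spread among the arrays, possibly a technical one.

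A dividing cell makes most of its mitotic proteins anew in each cycle, with transcripts that climb through G2 and are lost after division. Cyclin-dependent kinase 1 bound to cyclin A or B drives entry into mitosis, Polo-like and Aurora kinases build the spindle, and the kinetochore checkpoint holds back the anaphase-promoting complex (APC/C) until every chromosome is attached. Many of these genes share promoter elements, the cell cycle homology region with the letters TTTGAA or TTTAAA, bound by the LIN54 subunit of the MuvB complex, and CCAAT boxes, bound by NF-Y.

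The promoters of 4 genes that went in opposite directions with hypoxia are shown with these elements marked. Plk1 and Racgap1 had the smallest adjusted p-values among the genes that rose over both genotypes and have a single promoter window, and Cdk1 and Ckap2 had the smallest among those that fell. The rise of Racgap1 was read by its brightest probe set and not by a further one, nearly as bright. The sequences come from RefSeq (build GRCm38.p6) and run 5′ to 3′ on the strand of the gene, from 250 bases before to 50 bases after its start. Capitals mark the homology region (TTTGAA or else TTTAAA) and, on either strand, the CCAAT box, which reads ATTGG where it lies on the opposite strand. Plk1 lies at chr7:122159185-122159484 (plus strand), Racgap1 at chr15:99651607-99651906 (minus strand), Cdk1 at chr10:69352863-69353162 (minus strand) and Ckap2 at chr8:22185770-22186069 (minus strand).
Plk1: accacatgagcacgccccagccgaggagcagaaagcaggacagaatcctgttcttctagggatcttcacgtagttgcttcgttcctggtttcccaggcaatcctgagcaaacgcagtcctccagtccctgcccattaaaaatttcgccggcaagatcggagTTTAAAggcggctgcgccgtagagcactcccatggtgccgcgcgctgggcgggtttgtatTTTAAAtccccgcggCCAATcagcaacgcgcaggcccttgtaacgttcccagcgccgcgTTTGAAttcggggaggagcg
Racgap1: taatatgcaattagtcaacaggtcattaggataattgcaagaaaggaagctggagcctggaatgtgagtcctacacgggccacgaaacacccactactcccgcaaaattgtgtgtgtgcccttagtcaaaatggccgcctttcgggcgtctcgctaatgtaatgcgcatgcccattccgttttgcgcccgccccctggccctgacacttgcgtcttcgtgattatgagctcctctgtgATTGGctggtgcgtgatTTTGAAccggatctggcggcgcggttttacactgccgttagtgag
Cdk1: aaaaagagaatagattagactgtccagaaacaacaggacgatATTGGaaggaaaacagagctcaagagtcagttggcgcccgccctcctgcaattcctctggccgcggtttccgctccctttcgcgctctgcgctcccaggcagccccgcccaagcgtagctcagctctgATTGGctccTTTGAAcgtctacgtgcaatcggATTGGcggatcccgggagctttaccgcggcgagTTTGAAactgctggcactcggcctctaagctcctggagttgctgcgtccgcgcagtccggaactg
Ckap2: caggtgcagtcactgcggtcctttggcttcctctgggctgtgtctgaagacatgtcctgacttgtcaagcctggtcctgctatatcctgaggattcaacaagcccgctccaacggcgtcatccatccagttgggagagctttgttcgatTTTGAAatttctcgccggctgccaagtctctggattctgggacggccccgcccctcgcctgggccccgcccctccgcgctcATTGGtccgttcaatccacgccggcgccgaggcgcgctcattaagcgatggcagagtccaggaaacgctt

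All 4 windows held a homology region and a CCAAT box. Counted from the start of the gene, TTTAAA began at -89 and -29 in Plk1, TTTGAA at 31 and CCAAT at -14. In Cdk1, TTTGAA began at -71 and -15 and CCAAT, on the opposite strand, at -208, -80 and -48. Racgap1 had TTTGAA at 6 and CCAAT on the opposite strand at -12. In Ckap2 the same elements began at -101 and -20.

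Of the 39 measured genes, 32 had a window in the table. TTTGAA or TTTAAA, searched on both strands, was present in 27 of the 32 (84.4%), against 30.6% of the 27025 genes with a window. CCAAT was present in 26 (81.2%), against 41.1% of all genes. Both elements, which may share a letter, stood together in 23 (71.9%), against 12.2%. The core of the HIF response element, ACGTG or GCGTG on either strand, was present in 22 (68.8%), against 46.7%. Among the genes that rose with hypoxia over both genotypes, 10 had a window, and 8 of these held a homology region, 8 a CCAAT box and 6 both. All 5 genes that fell had a window, and all 5 held both. The core of the HIF response element was present in 7 of the 10 that rose and in 4 of the 5 that fell. The match of a few letters is a description of the window and not evidence of binding.

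The level of these transcripts differed most between the 2 sets of arrays. The median log2 value over the 39 genes lay between 10.33 and 10.59 on the 4 arrays of the first set and between 9.36 and 9.62 on the 4 of the second. A gene was called where the Benjamini-Hochberg adjusted p of limma over all genes tested was under 0.05. By this rule 37 of the 39 genes fell in the second set, with log2 differences from -1.54 for Mki67 to -0.13 for Racgap1 and a median of -0.82. Of all genes tested, 20.7% were called lower and the median difference was 0.03. The difference was negative for 39 of 39 genes, and between 36 and 38 were called when any 1 array was left out. In bulk RNA, fewer dividing cells and less mitotic RNA per cell cannot be told apart.

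Mki67, which encodes the proliferation antigen Ki-67 of the chromosome surface, had first-set values of 12.17 and 11.97 in normoxia (wild type, then knockout) and 12.11 and 12.00 in hypoxia. Its second-set values were 10.31 and 10.03 in normoxia and 10.95 and 10.80 in hypoxia. The sets did not overlap, and the fall was -1.54 ± 0.133 on the log2 scale (SE of the fit, adjusted p = 6.4e-05). Top2a, the topoisomerase that untangles sister chromatids, read 12.27, 11.98, 12.27 and 12.10 in the first set and 11.04, 10.79, 11.28 and 11.07 in the second, in the order wild type and knockout in normoxia, then wild type and knockout in hypoxia. It fell by 1.11 ± 0.0545 with no overlap (adjusted p = 8.7e-06). Anln, which encodes the contractile-ring scaffold anillin, read 11.95, 11.87, 11.80 and 11.86 against 10.91, 10.97, 10.83 and 10.86 in the same order. The difference of -0.98 ± 0.0459 (adjusted p = 8.7e-06) was several times the spread within either set.

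Kinetochore genes fell further than spindle genes by their medians, though no test of that difference was made. All 7 kinetochore and checkpoint genes fell, with a median of -1.03. Nuf2, a subunit of the NDC80 complex that grips microtubules, read 10.59, 10.46, 10.26 and 10.26 in the first set and 9.33, 9.22, 9.13 and 9.26 in the second (-1.16 ± 0.0622, adjusted p = 1.1e-05). Mad2l1, the checkpoint protein that sequesters Cdc20, read 11.67, 11.50, 11.72 and 11.56 against 10.51, 10.40, 10.62 and 10.72 (-1.05 ± 0.0613, adjusted p = 1.4e-05). For both genes every second-set array lay below every first-set array. All 5 kinesins fell with a median of -0.92, from -1.02 for Kif20a to -0.26 for Kif11, and both cyclins fell with a median of -0.79. Of the 8 kinases 7 fell, and the median of the 8 was -0.71. Those that fell ranged from -1.35 ± 0.088 for Bub1b to -0.56 ± 0.0621 for Nek2. A further probe set of Bub1b, nearly equal in mean brightness, read -0.70 (adjusted p = 3.15e-04). The 5 spindle and microtubule genes fell with a median of -0.52, from -1.24 for Ckap2 to -0.38 for Tpx2. The 4 Cdc25 and APC/C genes fell with a median of -0.63, and the chromosomal passengers Birc5 and Incenp fell by 1.00 and 0.68.

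Plk1, the Polo-like kinase, and Racgap1, a subunit of the centralspindlin complex, were the 2 genes not called. Their differences were -0.14 ± 0.0827 (adjusted p = 0.213) and -0.13 ± 0.0674 (adjusted p = 0.144). A further probe set of Racgap1 read a fall of -0.76 (adjusted p = 1.47e-04 over the 26216 probe sets tested) where the brightest did not. Plk1 had no further probe set.

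**Figure D1:**
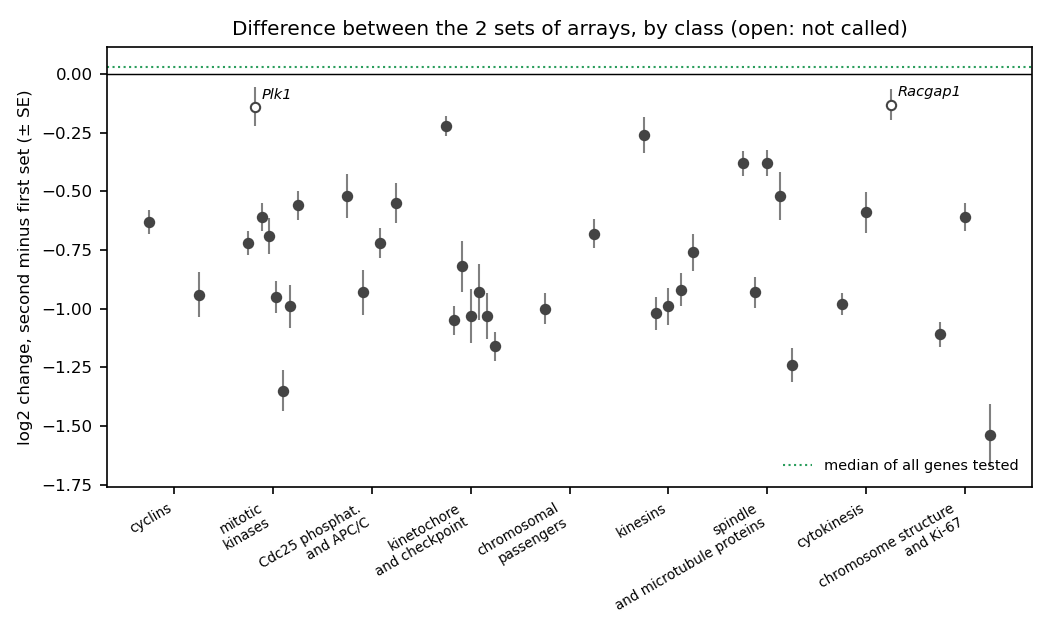
Second minus first set on the log2 scale (vertical axis) for each of the 39 genes, grouped by role along the horizontal axis, with bars for the SE of the fit and a dotted line for the median of all genes tested (0.03). Every point lies below 0, and the open points, Plk1 and Racgap1, are the 2 genes not called.

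Other transcripts moved with the set as well. Of 77 further G2/M genes tested, 69 fell and 2 rose, with a median of -0.73, and of 46 G1/S and S-phase genes 43 fell and none rose, with a median of -0.81. Cdca5 (-1.37, adjusted p = 6.9e-06), which encodes the cohesin regulator sororin, and Mcm5 (-1.03, adjusted p = 6.9e-06), a subunit of the replicative helicase, were examples. Cdkn2a, which encodes the cell cycle inhibitors p16Ink4a and p19Arf, read 7.68, 7.96, 7.77 and 8.14 in the first set and 9.82, 9.61, 9.52 and 9.55 in the second. It rose by 1.74 ± 0.109 (adjusted p = 1.9e-05), while Cdkn2b, its neighbour that encodes p15Ink4b, rose by 0.54 ± 0.07 (adjusted p = 4.7e-04). Cdkn1c, which encodes p57Kip2, fell by 1.32 ± 0.17 (adjusted p = 4.2e-04). Of 17 inhibitors and pocket proteins tested 4 rose and 5 fell, near the shares of all genes, 25.4% higher and 20.7% lower.

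Markers of other cells also differed between the sets. Of 13 macrophage and leukocyte markers tested 11 fell in the second set, with a median of -1.13. Their summed linear signal was 4545 and 1555 in wild-type normoxia (first set, then second), 1280 and 798 in knockout normoxia, 3212 and 1317 in wild-type hypoxia, and 1247 and 720 in knockout hypoxia. The summed signal of 10 fibroblast markers lay between 71617 and 87233 on every array, but single markers differed: 5 rose in the second set and 2 fell, Lum by 2.62 and Pdgfra by 0.92. Pdgfra (-0.72 ± 0.0669, adjusted p = 0.0111) and Dcn (-0.51 ± 0.0612, adjusted p = 0.0225) were also called lower in the knockout over both oxygen conditions. Epithelial sums were 346 to 529, endothelial sums 160 to 276, erythroid sums 26 to 32 and skeletal muscle sums 866 to 3251. Acta1, the brightest muscle marker, read 9.1 to 9.65 in the first set and 10.9 to 11.54 in the second (1.94 ± 0.0963, adjusted p = 8.7e-06). Myog, Myh3 and Tnnt1 were instead high on the first-set wild-type arrays alone. Myog read 8.04 and 7.96 there (normoxia, then hypoxia) and 3.48 to 4.33 on the other 6 arrays, Myh3 8.53 and 8.35 against 3.58 to 4.0, and Tnnt1 8.57 and 8.83 against 4.69 to 5.75. The median knockout difference of the 6 muscle markers tested was -2.21 in the first set but 0.16 in the second. The 3′ minus 5′ log2 difference of the Actb control, a measure of how complete the labelled RNA was, lay between 0.53 and 0.73 in the first set and between 0.31 and 0.47 in the second. That of Gapdh overlapped between the sets, at 0.33 to 0.52 and 0.14 to 0.47. The part of these differences in the fall of the mitotic genes was not tested.

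With hypoxia, some mitotic genes were higher and others lower. The highest fitted change over both genotypes was that of Plk1 (0.58) and the lowest that of Cdk1 (-0.51). Over both genotypes 13 of the 39 rose and 5 fell, a median change of 0.11. Of all genes tested, 28.7% were called, 13.6% higher and 15.2% lower. By direction within each set, 18 of the 39 were higher and 10 lower in both sets, against 37.2% and 36% of all genes. The first set had a median of -0.02 and the second one of 0.22. Leaving out the second-set array of knockout normoxia reduced the calls from 18 to 10, and the other 7 arrays, left out in turn, gave at most 19.

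In wild type 5 genes rose (Smc4, Plk1, Ccna2, Ect2, Racgap1) and 5 fell (Cdk1, Ckap2, Bub1b, Aurka, Bub3), a median of 0.08, with 16.4% of all genes called, 7.54% higher and 8.85% lower. That count rested on each of the 4 wild-type arrays. It was 2 without the first-set array of either oxygen condition, 3 without the second-set array of normoxia and 4 without that of hypoxia. In the knockout 6 rose (Plk1, Smc4, Ccna2, Cdc25b, Racgap1, Ndc80) and Cdk1 fell, a median of 0.19, with 10.1% of all genes called, 4.98% higher and 5.13% lower. Without the second-set array of knockout normoxia or of knockout hypoxia none was called (limma, with 9 and 8 genes at an unadjusted p under 0.05), and without the first-set array of knockout normoxia 1 was. With no term for the set, limma called none in any of these 3 comparisons, and 1, 2 and 3 genes had an unadjusted p under 0.05 in wild type, knockout and both genotypes.

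**Figure D2:**
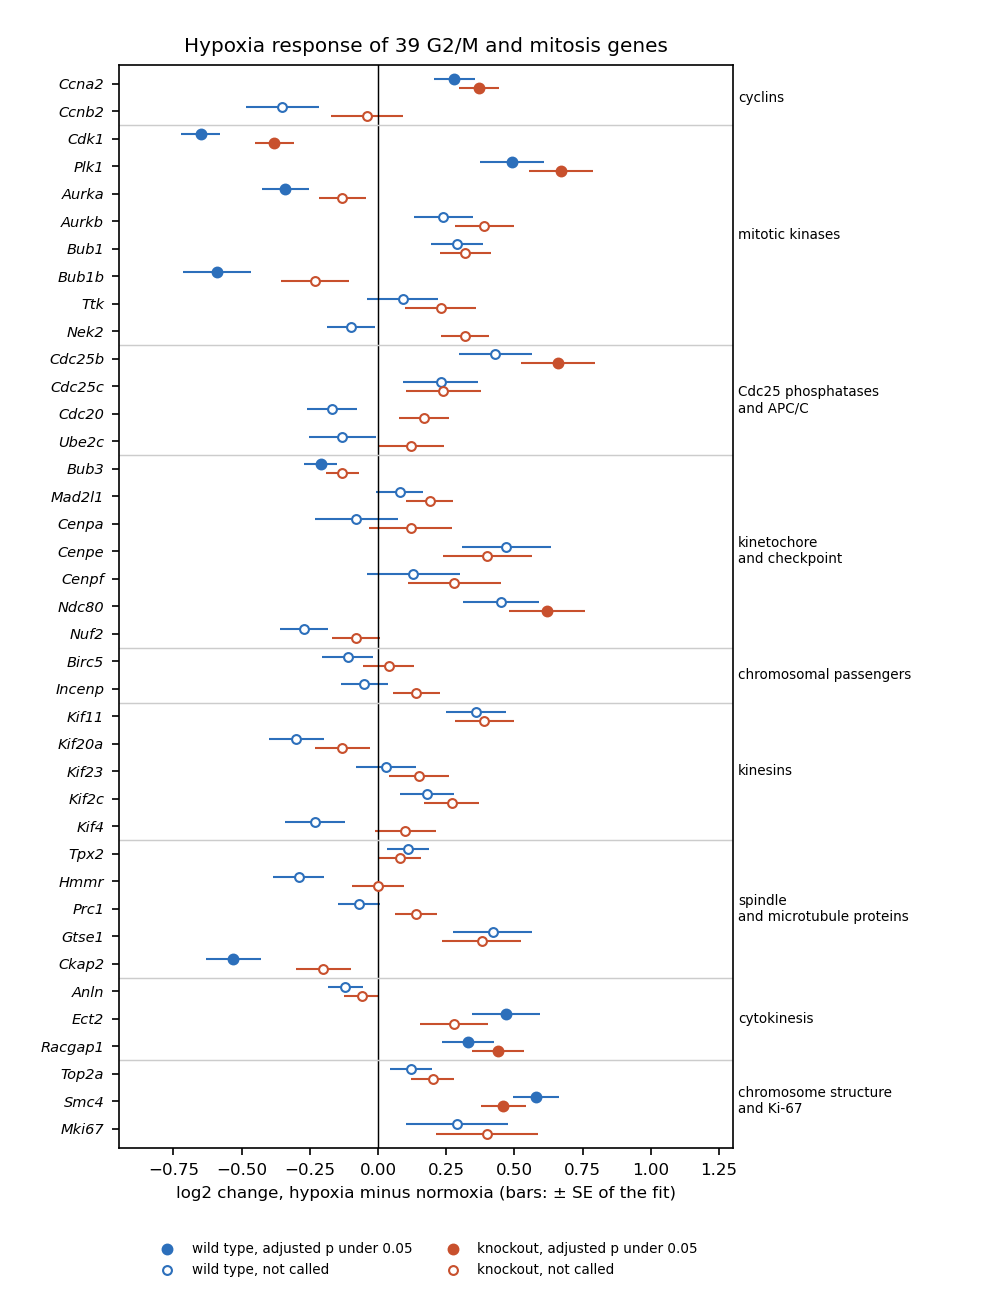
Log2 change with hypoxia (horizontal axis, bars for the SE of the fit) of the 39 genes in wild type (blue) and knockout (orange), grouped by role, with filled points for adjusted p under 0.05. Plk1, Ccna2, Racgap1 and Smc4 are filled to the right of 0 in both genotypes and Cdk1 to the left of 0 in both.

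Among the kinases 3 rose and 3 fell over both genotypes. Cdk1, the kinase that drives entry into mitosis, read 12.12 and 11.31 in wild-type normoxia (first set, then second), 11.93 and 11.15 in knockout normoxia, 11.38 and 10.76 in wild-type hypoxia and 11.49 and 10.83 in knockout hypoxia. Within each set both hypoxic arrays lay below both normoxic ones. Cdk1 fell by 0.65 ± 0.0715 in wild type (adjusted p = 0.0019), and its change in the knockout was -0.38 ± 0.0715 (adjusted p = 0.0179). Over both genotypes its change was -0.51 ± 0.0506 (adjusted p = 4.3e-04), between -0.54 and -0.48 in the 8 fits without 1 array and called in all 8. The knockout call was kept in 4 of the 8.

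Plk1, which activates Cdc25 and builds the spindle poles, went the other way. It read 9.09 and 8.83 in wild-type normoxia, 8.92 and 8.62 in knockout normoxia, 9.52 and 9.38 in wild-type hypoxia and 9.36 and 9.51 in knockout hypoxia. All 4 hypoxic arrays lay above all 4 normoxic ones, across both sets. Plk1 rose by 0.49 ± 0.117 in wild type (adjusted p = 0.0264). Its rise was 0.67 ± 0.117 in the knockout (adjusted p = 0.0147) and 0.58 ± 0.0827 over both (adjusted p = 0.00187). The last was called in all 8 fits without 1 array, the others in 4 and 5 of them.

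Bub1b, which encodes the checkpoint protein BubR1, read 9.83 and 8.17 in wild-type normoxia and 9.46 and 8.14 in knockout normoxia. In hypoxia it read 8.99 and 7.82 in wild type and 9.19 and 7.94 in the knockout. It fell by 0.59 ± 0.124 in wild type (adjusted p = 0.017), with a change of -0.23 ± 0.124 in the knockout (adjusted p = 0.275). A further probe set of the gene, nearly as bright, fell by 0.28 over both genotypes (adjusted p = 0.0317). Aurka, the Aurora kinase of the spindle poles, read 9.77 and 9.06 in wild-type normoxia, 9.60 and 8.99 in knockout normoxia, 9.38 and 8.77 in wild-type hypoxia and 9.41 and 8.91 in knockout hypoxia. It fell in wild type (-0.34 ± 0.0856, adjusted p = 0.0317) and over both genotypes (-0.24 ± 0.0605, adjusted p = 0.0203), though only 2 of the 8 fits without 1 array kept the latter call. Aurkb, the Aurora kinase of the chromosomal passenger complex, rose over both genotypes by 0.31 ± 0.076 (adjusted p = 0.0163), and its further probe set by 0.36 (adjusted p = 0.00672). Bub1, a kinase that recruits checkpoint proteins to the kinetochore, rose by 0.30 ± 0.0665 (adjusted p = 0.0111). Ttk and Nek2 had changes of 0.16 and 0.11 and were not called.

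**Figure D3:**
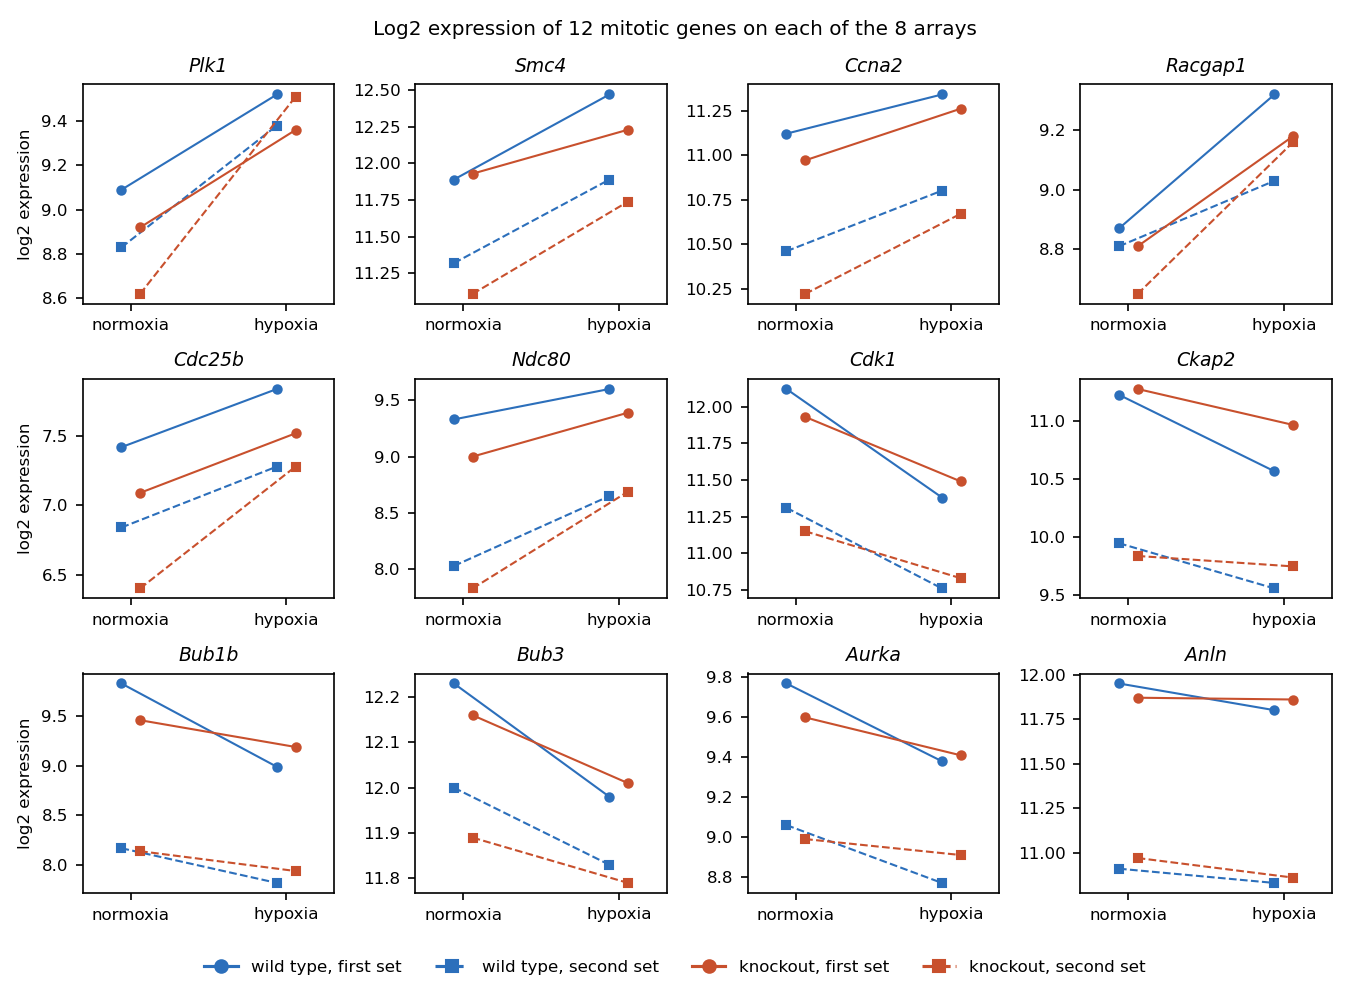
Log2 expression (vertical axis) of 12 mitotic genes in normoxia and hypoxia, with lines joining arrays of one genotype (blue wild type, orange knockout) and one set (circles first, squares second). Plk1 climbs and Cdk1 drops along all 4 lines, and for Bub1b and Anln the gap between the sets is wider than the change with oxygen.

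Of the 2 cyclins measured, Ccna2, which encodes cyclin A2, read 11.12 and 10.46 in wild-type normoxia and 10.97 and 10.22 in knockout normoxia. It read 11.34 and 10.80 in wild-type hypoxia and 11.26 and 10.67 in knockout hypoxia, above normoxia within each set. It rose in wild type (0.28 ± 0.0743, adjusted p = 0.0376), in the knockout (0.37 ± 0.0743, adjusted p = 0.0213) and over both (0.32 ± 0.0525, adjusted p = 0.00305). The wild-type call was lost in every fit without 1 array, the call over both in none. A further probe set of Ccna2, close to it in brightness, read a change of 0.02 (adjusted p = 0.89). Ccnb2, which encodes cyclin B2, had a change of -0.19 ± 0.0944 over both genotypes (adjusted p = 0.176).

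Cdc25b, the phosphatase that removes inhibitory phosphates from Cdk1, read 7.42 and 6.84 in wild-type normoxia, 7.09 and 6.40 in knockout normoxia, 7.84 and 7.28 in wild-type hypoxia, and 7.52 and 7.28 in knockout hypoxia. It rose in the knockout by 0.66 ± 0.134 (adjusted p = 0.0223) and over both genotypes by 0.54 ± 0.0944 (adjusted p = 0.00424). In wild type its change was 0.43 ± 0.134 (adjusted p = 0.0627). Cdc20, the activator of the APC/C, and Ube2c, its ubiquitin-conjugating enzyme, were lower in hypoxia in the first set (-0.14 and -0.21) and higher in the second (0.14 and 0.20), and neither was called. Cdc25c, a further phosphatase of Cdk1, had a change of 0.24 and was not called.

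Of the 7 kinetochore and checkpoint genes 2 rose and 1 fell. Ndc80, the outer kinetochore subunit that binds microtubules, read 9.33 and 8.03 in wild-type normoxia, 9.0 and 7.83 in knockout normoxia, 9.60 and 8.65 in wild-type hypoxia and 9.39 and 8.69 in knockout hypoxia. It rose in the knockout by 0.62 ± 0.139 (adjusted p = 0.0291) and over both by 0.54 ± 0.0985 (adjusted p = 0.00532). Nuf2, its partner in the same complex, had a change of -0.17 ± 0.0622 (adjusted p = 0.072). Mad2l1, Cenpa, the histone of the centromere, and Cenpf had changes of 0.13, 0.02 and 0.20 and were not called. The next probe set of Cenpa, far dimmer (mean 6.39 against 10.32), was lower in hypoxia in each genotype and set. That of Cenpf (mean 6.77 against 8.73) was higher in each. Cenpe, a kinetochore motor, rose by 0.43 ± 0.115 (adjusted p = 0.0241), but its further probe set, of like brightness, read -0.10 (adjusted p = 0.367). Bub3, which carries Bub1 and BubR1 to the kinetochore, read 12.23 and 12.00 in wild-type normoxia, 12.16 and 11.89 in knockout normoxia, 11.98 and 11.83 in wild-type hypoxia and 12.01 and 11.79 in knockout hypoxia. Its falls were -0.21 ± 0.0602 in wild type (adjusted p = 0.0483) and -0.17 ± 0.0425 over both (adjusted p = 0.02). The first call was kept in none and the second in 1 of the 8 fits without 1 array.

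Of the 5 kinesins 2 rose and none fell, with a median of 0.09. Kif11, the motor that pushes spindle poles apart, rose by 0.38 ± 0.077 (adjusted p = 0.00822). Its further probe sets read 0.08 (adjusted p = 0.457) and, for the dimmest, 1.00 (adjusted p = 5.96e-04). Kif2c, which removes tubulin from microtubule ends, rose by 0.22 ± 0.0707 (adjusted p = 0.0468), and its further probe set by 0.32 (adjusted p = 0.0202). Kif20a, a motor of the central spindle, had a change of -0.22 ± 0.0713, which just missed the threshold (adjusted p = 0.0504). Kif23, the motor of centralspindlin, and Kif4, a chromosome-bound motor, had changes of 0.09 and -0.07. The medians of the 8 kinases, the 7 kinetochore genes and the 5 kinesins, 0.14, 0.13 and 0.09, lay within 0.05 of each other, while each class held members from at most -0.17 to at least 0.38.

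Ckap2, a microtubule-associated protein of the spindle, read 11.23 and 9.95 in wild-type normoxia, 11.28 and 9.84 in knockout normoxia, 10.57 and 9.56 in wild-type hypoxia and 10.97 and 9.75 in knockout hypoxia. It fell in wild type by 0.53 ± 0.101 (adjusted p = 0.0126), and its change in the knockout was -0.20 ± 0.101 (adjusted p = 0.252). Gtse1, a microtubule-binding protein of G2 and S phase, rose over both genotypes by 0.40 ± 0.102 (adjusted p = 0.0205), and Tpx2, Hmmr and Prc1 had changes of 0.10, -0.14 and 0.04 and were not called. Neither chromosomal passenger was called, with changes of -0.04 for Birc5, which encodes survivin, and 0.05 for Incenp, the scaffold of the complex. Among the dimmer probe sets of Incenp, that of mean 5.24 was higher in hypoxia and that of mean 5.46 lower, in each genotype and set.

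In cytokinesis, both regulators of the small GTPase RhoA rose, and Anln had a change of -0.09 and was not called. Ect2, the exchange factor of RhoA, read 9.58 and 8.93 in wild-type normoxia, 9.70 and 8.87 in knockout normoxia, 10.04 and 9.41 in wild-type hypoxia and 9.70 and 9.43 in knockout hypoxia. Its first-set knockout values were equal, and it rose in wild type by 0.47 ± 0.125 (adjusted p = 0.0381) and over both by 0.37 ± 0.0885 (adjusted p = 0.0149). Racgap1, which binds and activates Ect2, read 8.87 and 8.81 in wild-type normoxia, 8.81 and 8.65 in knockout normoxia, 9.32 and 9.03 in wild-type hypoxia and 9.18 and 9.16 in knockout hypoxia. All 4 hypoxic arrays lay above all 4 normoxic ones, and it rose in wild type (0.33 ± 0.0953, adjusted p = 0.0472), in the knockout (0.44 ± 0.0953, adjusted p = 0.0266) and over both (0.39 ± 0.0674, adjusted p = 0.00422). Its further probe set, nearly as bright (mean 8.89 against 8.98), read -0.03 (adjusted p = 0.807).

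Smc4, the ATPase core of condensin, read 11.89 and 11.32 in wild-type normoxia, 11.93 and 11.11 in knockout normoxia, 12.47 and 11.89 in wild-type hypoxia and 12.23 and 11.74 in knockout hypoxia. Smc4 rose in both genotypes, by 0.58 ± 0.0835 in wild type (adjusted p = 0.00489) and 0.46 ± 0.0835 in the knockout (adjusted p = 0.0159). The rise over both was 0.52 ± 0.059 (adjusted p = 7.6e-04). Of its other probe sets, the second in brightness also rose by 0.52 (adjusted p = 0.00262) and the third read 0.00 (adjusted p = 0.983). Top2a had a change of 0.16 ± 0.0545 (adjusted p = 0.0598) on its brightest probe set, while a dimmer one fell by 0.79 (adjusted p = 0.00351). Mki67 had a change of 0.34 ± 0.133 (adjusted p = 0.0889), made of -0.02 in the first set but 0.71 in the second.

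Over both genotypes, Plk1, Cdk1, Smc4, Ccna2, Racgap1, Ckap2, Bub1b, Cdc25b and Ndc80 were called in all 8 fits without 1 array, and Ect2 in 5. In wild type, Cdk1 and Smc4 were called in all 8, Bub1b in 6, Ckap2 in 5, Ect2 in 4 and Racgap1 in none. In the knockout each call was kept in 4 to 6 of the 8, with Smc4 in 6 and Racgap1 and Ccna2 in 4.

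For 23 of the 39 genes a further probe set was tested, and the next brightest moved in the same direction as the brightest over both genotypes in 14 of them. In the difference between the sets, by contrast, 22 of the 23 next probe sets were lower in the second set, 17 of them called. Plk1, Cdk1, Ckap2, Ect2, Cdc25b, Ndc80, Gtse1 and Aurka had no second tested probe set. Their hypoxia changes therefore rest on 1 probe set each. The 3′ minus 5′ difference of the Actb control exceeded its normoxic value in all 4 combinations of genotype and set, and so did that of Gapdh. Their part in the changes was not tested.

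**Figure D4:**
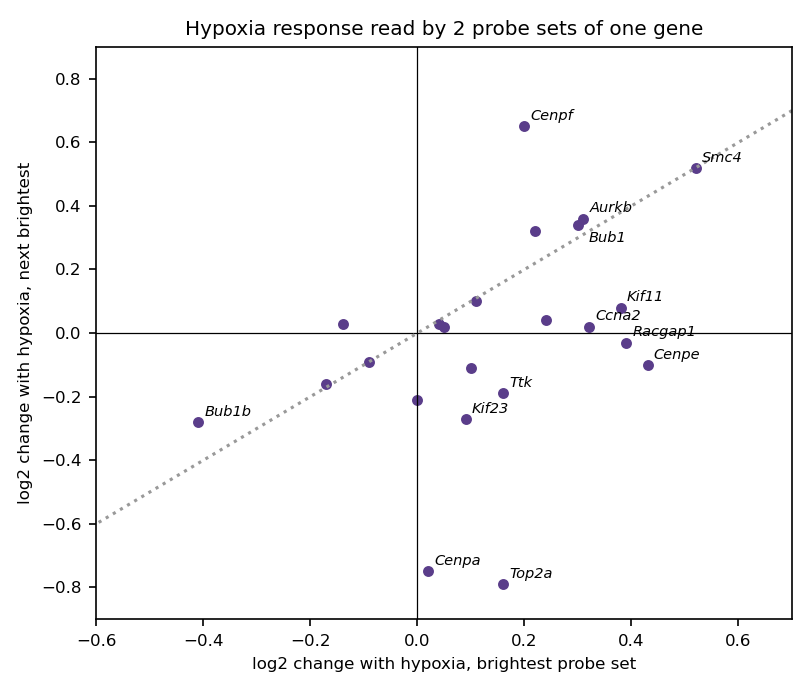
Log2 change with hypoxia over both genotypes read by the brightest probe set (horizontal axis) and by the next brightest (vertical axis) of the 23 genes with a further tested probe set, 1 point per gene, with a dotted line of equality. Smc4, Aurkb and Bub1b lie near the line, while Racgap1, Ccna2 and Cenpe lie near 0 on the vertical axis and Top2a far below it.

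The hypoxia response of most mitotic genes was more positive in the second set of arrays than in the first, which for genes that fell means a smaller fall. Cdk1 changed by -0.59 in the first set and by -0.44 in the second, Bub1b by -0.56 and -0.27, and Plk1 by 0.43 and 0.72. In a fit with a term for the response in the second minus the first set, chosen after the values were seen, the term was positive for 37 of the 39 genes, with a median of 0.21, and negative for Anln (-0.02) and Racgap1 (-0.05). By limma 0 of the 39 and 0 of all 13647 genes were called, and 10 of the 39 had an unadjusted p under 0.05, against 5.53% of all genes. Mki67 had the largest term, 0.72 (adjusted p = 0.567). Cenpe (0.53), Cenpf (0.51) and Cenpa (0.50), 3 centromere and kinetochore genes, followed it, each with an adjusted p of 0.819 or more.

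Other cell cycle lists held genes called in both directions. Of 77 further G2/M genes 19 rose and 8 fell with hypoxia over both genotypes, and of 46 G1/S genes 10 rose and 6 fell. Among all genes 13.6% were called higher and 15.2% lower. No test of either list against these shares, or of one list against the other, was made. Kifc1, a minus-end kinesin of the spindle, rose by 0.82 ± 0.0661 (adjusted p = 2.0e-04), and Lin54, the subunit of MuvB that reads the homology region, rose by 0.47 ± 0.0681 (adjusted p = 0.00192). Pttg1, which encodes the separase inhibitor securin, fell by 0.41 ± 0.0504 (adjusted p = 0.00104). Mcm3, a subunit of the replicative helicase, rose by 0.74 ± 0.0606 (adjusted p = 2.2e-04). Of 17 inhibitors and pocket proteins 5 rose and 5 fell, led by a rise of 1.36 ± 0.111 in Mxi1, an antagonist of Myc (adjusted p = 2.1e-04), and a fall of -0.80 ± 0.0711 in the antiproliferative gene Btg2 (adjusted p = 2.9e-04).

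No mitotic gene was called between genotypes. Egln2 itself read 8.84 and 9.07 in wild-type normoxia, 8.0 and 8.34 in knockout normoxia, 8.95 and 9.13 in wild-type hypoxia and 8.66 and 8.85 in knockout hypoxia. It was lower in the knockout by -0.79 ± 0.0889 in normoxia (adjusted p = 0.0489), and its difference in hypoxia was -0.29 ± 0.0889 (adjusted p = 0.725). The sources used here do not place its probe set relative to the deletion, and the check of the labels is therefore partial.

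In normoxia limma called 0 of the 39 genes between knockout and wild type, with 0.0366% of all genes called. At an unadjusted p under 0.05 there were 9, or 23.1%, against 6.7% of all genes. The difference was negative for 37 of 39 genes, against 56% of all genes, with a median of -0.17. In both sets 31 of 39 were lower, against 31.3% of all genes. Over all genes tested the median was -0.02. The 39 genes moved together between the sets, so such counts, here and in the other contrasts, are not of independent observations. The 2 genes above 0 were from the spindle and cytokinesis classes, and the range ran from -0.39 for Cdc25b to 0.11 for Gtse1. Top2a had the smallest p, with a difference of -0.27 ± 0.0771 (adjusted p = 0.469), followed by Nek2, a centrosomal kinase, at -0.29 ± 0.0878 (adjusted p = 0.529). Further G2/M genes were negative in 65 of 77 and G1/S genes in 42 of 46, with medians of -0.15 and -0.12 and none called.

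In hypoxia limma again called 0 of 39, with 3 at an unadjusted p under 0.05, against 0.0293% and 5.52% of all genes. The median difference was -0.02, with 23 genes negative (59%, against 49.1% of all genes), and the sets gave -0.11 (first) and 0.10 (second). Over both oxygen conditions 0 were called and 5 had an unadjusted p under 0.05, against 0.256% and 10.2% of all genes. Top2a was again first, lower in all 4 pairs of arrays of one set and oxygen condition, with a difference of -0.23 ± 0.0545 (adjusted p = 0.193).

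All 13 macrophage and leukocyte markers tested were lower in the knockout over both oxygen conditions, with a median of -1.30 and 7 called. These calls treat the normoxic and hypoxic arrays of one genotype and set as independent. Their summed signal was lower in the knockout in both sets and both oxygen conditions, and the skeletal muscle markers Myog, Myh3 and Tnnt1 were lower in the knockout in the first set. The part of these markers in the small negative differences of the mitotic genes was not tested.

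**Figure D5:**
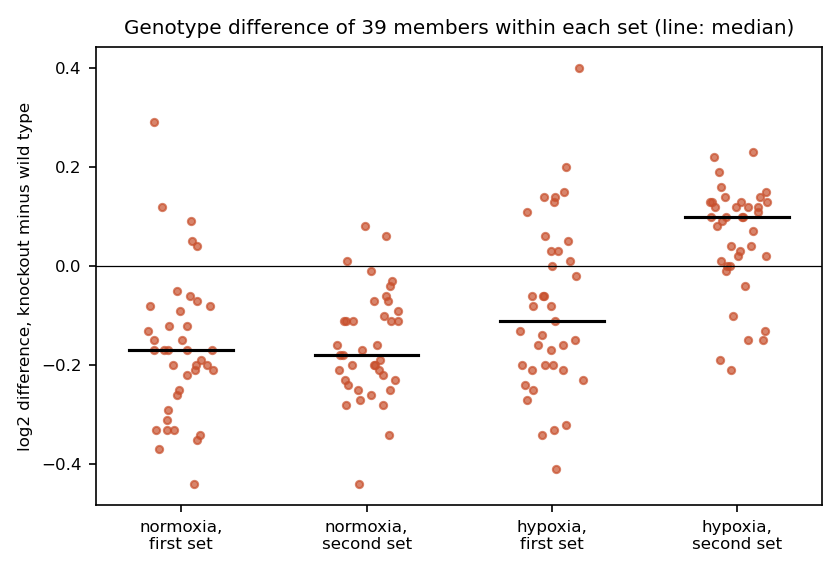
Log2 difference of knockout from wild type (vertical axis) for the 39 genes, within each set in normoxia and in hypoxia, 1 point per gene and a line at the median. The medians are -0.17 and -0.18 in normoxia, -0.11 in the first set in hypoxia and 0.10 in the second.

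The interaction of genotype and oxygen, coded as knockout response minus wild-type response, was called for none of the 39 genes or of the 13647 by limma, and for 3 of the 39 at an unadjusted p under 0.05, against 2.42% of all genes. It was positive for 34 of the 39, with a median of 0.15, against 7585 of the 13647 genes tested. In both sets it was above 0 for 26, against 30.2% of all genes. The interaction shares its normoxic arrays with the genotype difference in normoxia, so the 2 counts are not separate results. Nek2 (0.42 ± 0.124), Cdc20 (0.35 ± 0.13) and Cdk1 (0.27 ± 0.101) were the 3 genes, each with an adjusted p of 1. The 95% interval for Plk1 ran from -0.20 to 0.55 around 0.18, and that for Bub1b from -0.04 to 0.76 around 0.36. The calls of Bub1b, Ckap2, Aurka and Bub3 in wild type and not in the knockout are therefore not shown to be a difference between the genotypes.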

How the data were processed

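RNA of 8 samples was measured on 1-colour Affymetrix arrays from 5 ug of total RNA, per the labels' protocols. The deposited table holds log2 values made by the authors with RMA, per the submitters' processing notes, which give no version. RMA brings the arrays to a common distribution and so hides any shift of the whole transcriptome. The values lay between 2.09 and 14.71, and no further normalization was applied.

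Of 45037 probe sets other than controls, 34945 had exactly 1 symbol in the platform annotation, 932 had several and 9160 were unnamed here. A RefSeq table (GRCm38.p6) gave current symbols for 34741 by Entrez identifier. Genes with a mean under the 25th percentile (log2 4.17) were left out.

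One limma model (limma 3.58.1, R 4.3.3) with 4 group means and a block for the set was fitted to all 13647 genes, with eBayes and a mean-variance trend, and checked on simulated data. It has 3 residual degrees of freedom, to which moderation adds 5.22. The number of arrays limits the precision. All p-values are two-sided and adjusted by Benjamini-Hochberg over all genes tested. The contrasts within a genotype and within an oxygen condition share arrays. The labels mark 1 array of each group as second. Across genes, the difference between the sets correlated between the oxygen conditions of one genotype at 0.85 (wild type) and 0.83 (knockout). Between groups of different genotype it correlated at 0.71 to 0.77. The sets therefore pair the arrays, more closely within a genotype. The model has no term for genotype within a set. Genotype p-values over both oxygen conditions thus treat the arrays of one genotype and set as independent.

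The genes and lists were chosen with earlier results of these data known. Array values are given for Plk1, Cdk1 and called genes (at most 6 per direction and contrast where over 15 were called, by adjusted p), other genes by counts, and up to 4 genes of each other list. Mki67 and the single fibroblast and muscle markers were added after their values were seen. Alternatives changed the block, filter, trend, normalization, probe set rule and arrays used.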

Additional observations from a re-analysis of the deposited data

How the results depend on the processing

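Genotype differences and the interaction gave 0 called genes in each of the 8 fits without 1 array and under the other settings run. The difference between the sets gave 36 to 38 called without 1 array, and the remaining settings run stayed within 1.5 times of 37. With no replicate block, 0 of 39 genes were called with hypoxia in wild type (10 in the model with the set as a block), in the knockout (7) and over both genotypes (18). With the replicate block as a random effect 2, 1 and 6 were called. With no trend in eBayes 4 were called in wild type and 2 in the knockout, with the mean of all probe sets 5 in wild type, and with the 4 arrays of the contrast alone 2 and 0. Without 1 array the counts ran from 2 to 10 in wild type, 0 to 7 in the knockout and 10 to 19 over both. The other settings stayed within 1.5 times. The called hypoxia changes of the genes described array by array kept their direction in 510 comparisons with these settings, and 176 of these lost the call. In this balanced design, changes of the block, filter or trend, the 4 arrays alone and single probe sets leave the fitted change as it is. In those comparisons the direction was therefore fixed in advance. The tally also leaves out further probe sets. The next brightest moved in the same direction in only 14 of 23 genes, and Racgap1, Cenpe and Top2a were among the others. The cause was not tested. The set has no estimate with no replicate block or with a random one. With 2 arrays per group, a p that misses the threshold does not show equal levels.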
